A study of Rattus norvegicus with 6 samples.

Results

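Cytosolic ribosomal protein genes were taken as every gene whose only symbol in the array annotation begins with Rpl or Rps followed by a number, or is Rplp0, Rplp1, Rplp2 or Rpsa. S6 kinase genes (Rps6k) and symbols ending in -ps or -like were left out, and each gene was read from its probe set of highest mean log2 signal. The rule found 48 of the 14217 genes that had a probe set of their own. They comprised 29 proteins of the large subunit, 13 of the small subunit and 6 paralogues, namely Rpl26l1, Rpl39l1, Rpl3l, Rpl7l1, Rps27l and Rps4y2. Of 78 symbols in a list of standard ribosomal protein genes, 36 were not members. For 27 of these, among them Rplp1 and Rpl10, the only probe sets also carried symbols of pseudogenes or near-identical copies. That of Rps10 also carried the symbol of Rpl30. The 33 shared probe sets were kept apart from the members.

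The arrays measured RNA from whole ovaries of female Sprague-Dawley rats taken on postnatal day 4 and kept in organ culture for 48 h. Control ovaries (3 samples) received no factor, and treated ovaries (3 samples) received recombinant human NT3, a neurotrophin, at 50 ng/ml; the series title places the growth factor in the transition of primordial follicles to primary follicles. Each sample pooled 2 to 3 ovaries, no genetic alteration was named for either group, and both groups shared strain, age, sex, medium and culture time. The titles call the samples biological replicates, numbered 1 to 3 in each group, and the p-values below measure the spread between these samples.

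The deposited values were MAS5 signals, which are linear probe set intensities scaled to a common trimmed mean of 210.1 on each of the 6 arrays, with medians of 69.0 to 75.0. Oocyte markers lay above the low-signal filter (a mean signal of 41.3) for 7 of 7 annotated genes, granulosa markers for 10 of 11 and stromal and smooth muscle markers for 8 of 8. Markers of other cells were also present, with 10 of 10 for macrophages and leukocytes, 2 of 4 for erythroid cells and 2 of 5 for adipocytes. The ratio of 3′ to 5′ signal, a measure of RNA integrity, was 6.83 for Actb on control replicate 2 against 2.42 to 2.91 on the other 5 arrays, and 1.70 for Gapdh against 1.09 to 1.25.

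Ribosomal proteins assemble with ribosomal RNA into a small subunit, which decodes the message, and a large subunit, which joins the amino acids. Their messenger RNAs are among the most abundant in growing cells and typically begin with a C followed by an unbroken run of pyrimidines, the 5′ terminal oligopyrimidine (TOP) tract, through which mTOR signalling and the RNA-binding protein Larp1 adjust their translation. In the ovary, the mTOR pathway is known for its part in the activation of primordial follicles. Array signals report messenger RNA and not its translation.

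The TOP tract is the sequence feature by which these genes are known, and start regions are shown for some of the members that turn up in the results below. They are examples and not a sample of the members. The shares over all members with a start region follow them. Each window holds 15 bases before and 15 bases from an annotated start of the gene on build GRCr8, written along the gene's own strand. Capitals mark a C at the annotated start followed without a break by at least 4 further pyrimidines.
Rpl22, chr5:168117946-168117975, plus strand: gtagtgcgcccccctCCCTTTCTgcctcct
Rpl35a, chr11:81235007-81235036, minus strand: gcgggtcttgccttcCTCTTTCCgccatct
Rplp0, chr12:46718376-46718405, minus strand: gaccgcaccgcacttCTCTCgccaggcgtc
Rpl39, chrX:121195882-121195911, minus strand: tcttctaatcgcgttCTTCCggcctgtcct
Rpl28, chr1:78083518-78083547, minus strand: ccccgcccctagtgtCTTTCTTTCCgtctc
Rps23, chr2:23814502-23814531, plus strand: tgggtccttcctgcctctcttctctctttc
Rpl23, chr10:83272170-83272199, minus strand: actaacttcctttctgactctttccggacg
Rps3, chr1:163195762-163195791, minus strand: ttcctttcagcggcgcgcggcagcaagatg
Rps6, chr5:106420526-106420555, minus strand: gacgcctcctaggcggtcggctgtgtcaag
Rpl26l1, chr10:17029014-17029043, minus strand: aaatgtcatttccgggcctgcgcacacacc
Rps4y2, chr4:183000898-183000927, plus strand: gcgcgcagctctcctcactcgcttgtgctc
Rpl22, Rpl35a, Rplp0, Rpl39 and Rpl28 met the strict form, and Rps23, Rpl23, Rps3 and Rps4y2 held a run of at least 8 pyrimidines elsewhere within 20 bases of the annotated start. Rps6 and Rpl26l1 held neither form, which says only that these letters are not in this stretch.

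A start region was given for 43 of the 48 members. The strict form, a C at the start and at least 4 pyrimidines after it on the gene's strand, was found in 12 of the 43 (27.9%) and in 722 of all 27457 genes of the promoter table (2.63%). A run of at least 8 pyrimidines within 20 bases on either side of the start occurred in 28 members (65.1%) and in 15.5% of all genes. On the opposite strand the same run occurred in 2 members (4.65%) and in 17.1% of all genes. Among members it was thus found mainly on the gene's own strand. The letters CTTTCC, which can lie inside such a run, were found in the same stretch in 11 members (25.6%) on the gene's strand and in 0 on the opposite strand, against 1.79% and 1.73% of all genes. The annotated start was the 5′ end of the RefSeq gene record in 25 of the 43 members, and the strict form depends on its exact base. Annotated starts were not measured in these ovaries, and a match describes the reference sequence only.

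The members separated into a bright and a dim range of signal. In 38 members, 26 of the large and 12 of the small subunit, the signal exceeded 4096 on every array, a limit drawn after the values were seen. Their signals ran from 7059, for Rpl14 on control replicate 1, to 20013, for Rps29 on control replicate 2. The other 10 members stayed between 2.0 and 2038; they were the 6 paralogues and Rpl28, Rpl30, Rpl39 and Rps13. Of all 48 members, 46 passed the low-signal filter, and Rpl30 and Rpl3l did not. A probe set's signal also depends on its probes, so these signals do not rank the genes by transcript number, and scaled signals do not show total RNA per ovary. In whole-organ RNA, fewer cells of a type and less RNA per cell cannot be told apart.

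No ribosomal protein gene passed the test for a difference between NT3 and control ovaries. Of the 46 tested members, 0 passed an adjusted p of 0.05 in limma with Benjamini-Hochberg adjustment over all 18625 probe sets tested, where 0 probe sets passed (0% called). Likewise 0 of the 46 had an unadjusted p under 0.05, against 240 of all probe sets (1.29%), and their lowest unadjusted p was 0.109. With the replicate number as a block in limma, 1 of the 46 had an unadjusted p under 0.05 (2.15% of all probe sets). In that fit 0 of the 46 passed the adjusted threshold. The median log2 fold change, NT3 minus control, was -0.027 over the members, or 0.982-fold, and -0.00054 over all probe sets. Estimates lay below 0 for 34 members and above 0 for 12, against 50.2% and 49.8% of all probe sets.

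The intervals bound how large an undetected difference could be. Over the 38 bright members the estimates ran from -0.12 to 0.088 log2 units with standard errors of 0.088 to 0.14. With the replicate number as a block, their median standard error was 0.083, against 0.121 without it. The intervals given here are without the block. Every 95% interval of these members lay between -0.40 and 0.37, that is between 0.760-fold and 1.29-fold, as far as 3 arrays per group measure the spread. Large-subunit members had a median of -0.023 (8 above and 18 below 0) and small-subunit members a median of -0.042 (1 above and 11 below 0); the difference between the subunits was not tested.

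**Figure D1:**
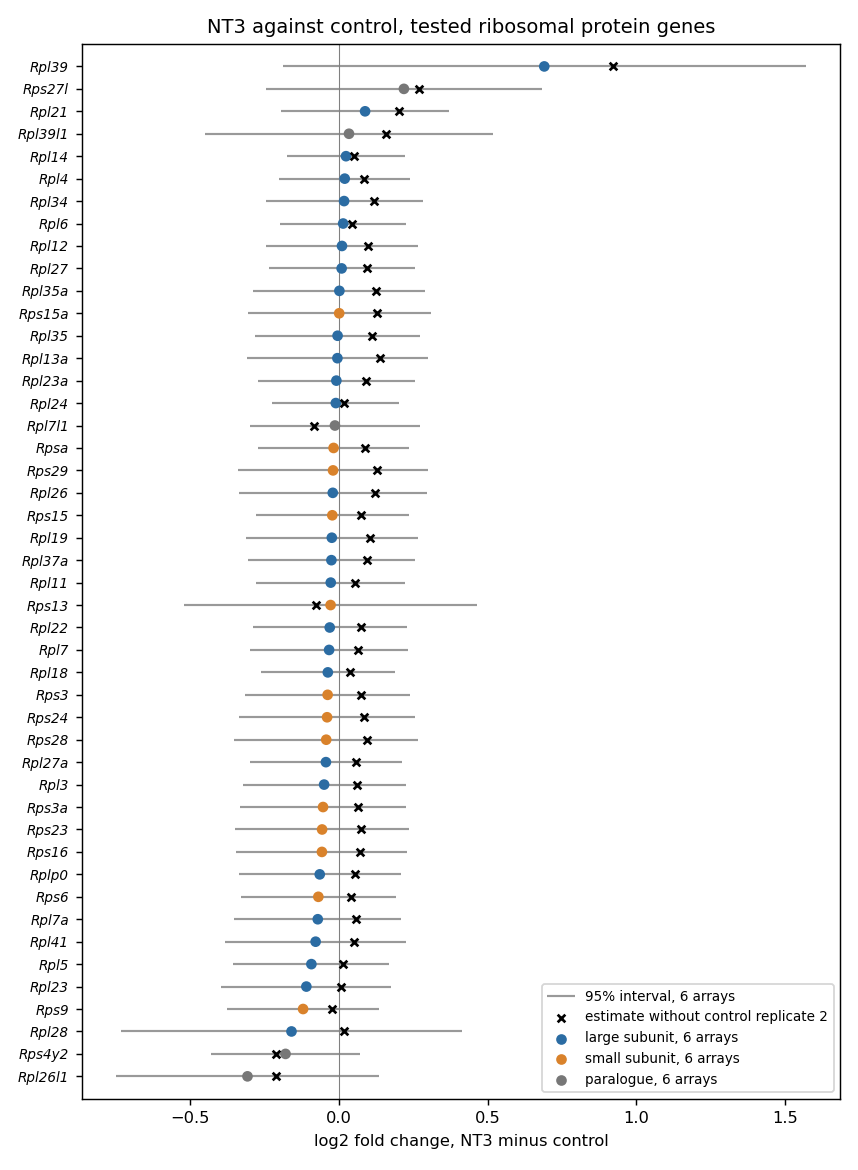
Log2 fold change, NT3 minus control, for the 46 tested ribosomal protein genes, with limma estimates from 6 arrays as coloured points, 95% intervals as grey lines and estimates without control replicate 2 as crosses. Every interval includes 0, and the crosses lie above 0 for 41 genes while the points lie above 0 for 12.

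The direction of these small estimates turned on a single control array. When control replicate 2 was left out, whose Actb and Gapdh ratios stood apart, 41 of the 46 members had an estimate above 0 (49% of all probe sets did), 29 members changed sign, and the median became 0.073, or 1.05-fold. Without control replicate 2, 37 of the 38 bright members lay above 0. So did 23 of 23 named probe sets of other genes in the same bright range. These had a sole symbol, not of a ribosomal protein, and a mean log2 signal at least that of the dimmest bright member. TOP genes and translation factors were not removed from them, and the TOP gene Eef1g is among them. Without control replicate 1, 44 members lay below 0 (51% of all probe sets did) and the median was -0.116. Leaving out control replicate 3 gave a median of -0.052, and leaving out NT3 replicates 1, 2 and 3 gave -0.011, -0.078 and -0.0019. In these 6 fits 0 members passed the adjusted threshold. Under quantile normalization, which gives every array the same distribution of signals, 18 members lay above and 28 below 0 with a median of -0.013.

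Control replicate 2 carried the highest signal of nearly all the bright members. As a deviation from each gene's own mean log2 signal over the 6 arrays, the median of the 38 bright members was -0.16, 0.25 and -0.030 on control replicates 1 to 3 and -0.048, 0.080 and -0.079 on NT3 replicates 1 to 3. All 38 lay above their mean on control replicate 2 (54% of all probe sets did) and all 38 lay below it on control replicate 1 (45.9% of all probe sets). On NT3 replicate 2, 37 of the 38 lay above their mean (51.7% of all probe sets). Of 23 named probe sets of other genes in the same bright range, 22 lay above their mean on control replicate 2. On control replicate 1, 22 of the 23 lay below it, and on NT3 replicate 2, 22 lay above it.

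The order of the arrays was shared as well. Control replicate 2 was the highest of the 6 arrays for 36 of the 38 bright members (31.4% of all probe sets), and control replicate 1 the lowest for 33 (14.1% of all probe sets). In 34 of the 38, control replicate 2 was highest and NT3 replicate 2 next, an order held by 1949 of the 18625 probe sets. The same order was held by 15 of the 23 bright named probe sets of other genes. The exceptions at the top, named after their values were seen, were Rpl24, a large-subunit protein highest on control replicate 3, and Rpl6, another large-subunit protein highest on NT3 replicate 2. The highest and lowest arrays of a bright member differed by 1.32-fold in the median and by 1.10-fold to 1.43-fold over the 38. The median SD over the 6 arrays was 0.146 log2 units for these members, 0.123 for the 23 other bright named probe sets and 0.202 for all probe sets, most of them dimmer.

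**Figure D2:**
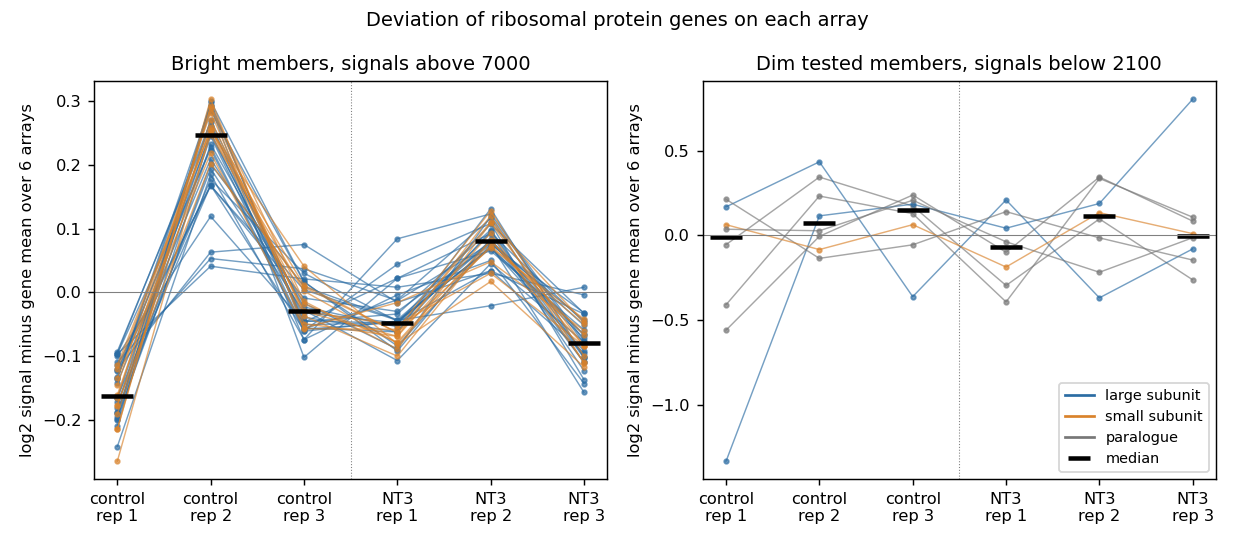
Log2 signal minus the gene's mean over 6 arrays (vertical axis) on each array (horizontal axis), 1 line per tested member, coloured by subunit, with black bars for the median; the bright range is on the left and the dim range on the right, on different scales. The 38 bright members follow 1 course, highest on control replicate 2 for 36 of them, and the 8 tested dim members do not.

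A like course appeared in other bright probe sets outside the membership rule. The 33 shared ribosomal protein probe sets had median deviations of -0.15, 0.215 and -0.023 on the controls and -0.039, 0.095 and -0.075 on the NT3 arrays, and 30 of them were highest on control replicate 2. The 23 named probe sets of other genes in the same bright range had medians of -0.144, 0.177 and -0.029 on the controls and -0.021, 0.111 and -0.073 on the NT3 arrays, with 16 highest on control replicate 2. Mitochondrial ribosomal protein genes, whose products form a separate ribosome inside mitochondria, had medians of -0.13, 0.135 and 0.031 on the controls and -0.063, 0.023 and 0.016 on the NT3 arrays. Of the 73, 42 were highest on control replicate 2 (31.4% of all probe sets) and 36 lowest on control replicate 1 (14.1%). Their medians lay on the other side of 0 from the bright members on control replicate 3 and NT3 replicate 3. For 13 of the 73, control replicate 2 was highest and NT3 replicate 2 next (1949 of all 18625 probe sets). The 16 tested genes of RNA polymerase I had medians of -0.102, 0.203 and -0.011 on the controls and -0.051, -0.044 and 0.035 on the NT3 arrays. On control replicate 2, 13 of the 16 lay above their mean. Of these genes, Polr1b (159.8 to 251.2) and Polr1e (226.3 to 334.6) were highest there, and Polr1a (90.8 to 153.8) on control replicate 1. After quantile normalization the median deviation of the 46 tested members was 0.0028 on control replicate 1 and 0.022 on control replicate 2, where the deposited scale gave -0.154 and 0.238. Quantile normalization sets the brightest signals equal on all arrays, so a deviation shared by the brightest probe sets shrinks under it whatever its origin. Signal range and RNA integrity moved with the course of the bright members. A low control replicate 1 and a high control replicate 2 were also seen in sets that held dimmer genes. The part of signal range and RNA integrity in the course was not tested.

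**Figure D3:**
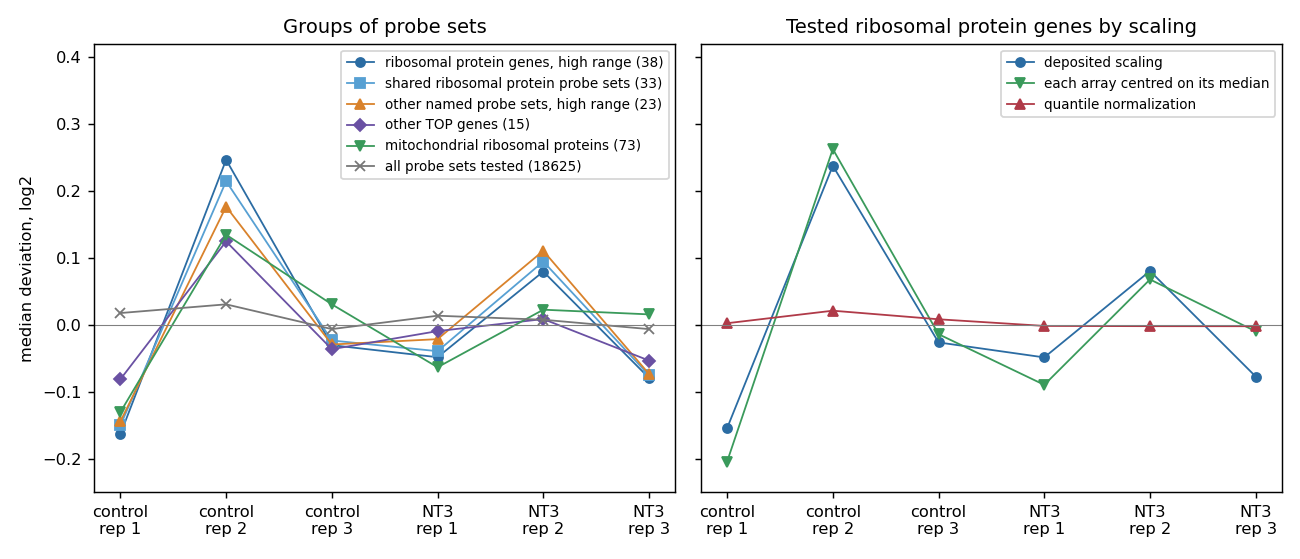
Median deviation from the gene mean in log2 units (vertical axis) on each of the 6 arrays (horizontal axis), for 6 groups of probe sets on the left and for the 46 tested members under 3 scalings on the right. Bright members, shared ribosomal protein probe sets and other bright probe sets peak together on control replicate 2. The other bright probe sets were not cleared of TOP genes, so these groups share Eef1g. Quantile normalization takes the members' median on that array from 0.238 to 0.022. It sets the brightest signals equal on all arrays, so this drop does not tell where the deviation came from.

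Within a replicate number, nearly all bright members differed in the same direction, and that direction was not the same for every number. The numbers were taken to pair the samples, from the correlation of their deviations over all probe sets, while the main fit left the pairing out. Between the arrays numbered 1, 37 of the 38 bright members were higher with NT3 (48.4% of all probe sets were), with a median log2 difference of 0.11. Between the arrays numbered 2, 37 were lower (52.1% of all probe sets were), with a median of -0.155. Between the arrays numbered 3, 37 were lower again (49.7% of all probe sets were), with a median of -0.051. Of the 23 other named probe sets in the bright range, 23 were higher with NT3 between the arrays numbered 1. In the numbers 2 and 3, 17 and 16 of the 23 were lower. Of the 33 shared ribosomal protein probe sets, 32 were higher in number 1, and 30 and 24 were lower in numbers 2 and 3. The 8 tested dim members split 4 to 4, 5 to 3 and 2 to 6 between higher and lower in the numbers 1, 2 and 3.

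**Figure D4:**
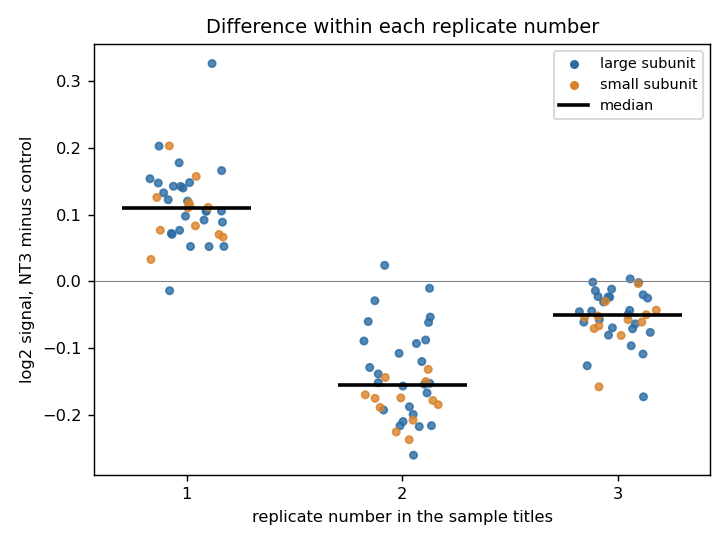
Log2 signal of the NT3 array minus that of the control array with the same replicate number (vertical axis) for the 38 bright members, with 1 point per gene spread sideways for legibility and black lines for the medians. The medians are 0.11, -0.155 and -0.051 for numbers 1, 2 and 3.

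Among the small-subunit proteins, Rps6 is the substrate of the S6 kinases and a standard readout of mTOR activity at the protein level. Its signals were 10492, 13620.0 and 11177 on control replicates 1 to 3 and 11015, 11651 and 10766 on NT3 replicates 1 to 3. The control arrays held both the lowest and the highest value, so the groups overlapped, and the log2 fold change was -0.070 ± 0.12 (SE; 95% interval -0.33 to 0.19). Rps3, which lines the mRNA entry channel and also has a DNA repair function, had signals of 9349, 12666 and 10687 in controls and 10094, 11224 and 10309.7 with NT3. All NT3 values of Rps3 lay inside the control range, and the log2 fold change was -0.039 ± 0.12 (SE).

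Rpsa, a small-subunit protein also known as the laminin receptor precursor, had signals of 8313, 10606 and 8769.9 in controls and 9018, 9429 and 8749 with NT3. Its NT3 values again lay inside the control range, with a log2 fold change of -0.019 ± 0.11 (SE). The other 2 probe sets of Rpsa gave log2 fold changes of 0.0038 and 0.094, so the sign differed between probe sets while each was within 1 SE of 0. Rps9, needed for accurate decoding, had the lowest unadjusted p among the bright members. Its signals were 9170.3, 11834 and 10213 in controls and 9381, 10043 and 9155 with NT3, with NT3 replicate 3 lowest and control replicate 2 highest. The log2 fold change of Rps9 was -0.12 ± 0.11 (SE; unadjusted p = 0.313; limma, adjusted p = 1.00) and -0.024 without control replicate 2.

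Rps29 and Rps23 gave the brightest probe sets of the small subunit. Rps29, a zinc-binding protein, read 13980.2, 20013 and 15592 in controls and 15588, 17727 and 15134 with NT3. Rps23, a protein of the decoding centre, read 13939, 19101 and 15239.5 in controls and 14594, 16539.8 and 14926 with NT3. In both genes the 3 NT3 arrays lay between the lowest and the highest control, and the log2 fold changes were -0.020 ± 0.14 and -0.057 ± 0.13 (SE).

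In the large subunit, Rplp0 forms the base of the stalk that recruits translation factors and often serves as a reference gene. It read 8881, 11426 and 9019.5 in controls and 9464, 9829 and 8595 with NT3. Control replicate 2 was highest and NT3 replicate 3 lowest, and the log2 fold change was -0.065 ± 0.12 (SE). Its stalk partner Rplp1 was measured only by a shared probe set, with 10737, 14481 and 11832 in controls and 10927, 12559 and 10783 with NT3, a log2 difference of -0.105 ± 0.14 (SE).

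Rpl5 and Rpl11 bind Mdm2 together with 5S ribosomal RNA when ribosome assembly is disturbed, which links the ribosome to p53. Rpl5 read 12603, 16111 and 13182 in controls and 12482, 13871 and 12738 with NT3, and its lowest and highest arrays were NT3 replicate 1 and control replicate 2. Rpl11 read 10509, 13324 and 12037 in controls and 11419.8, 12366 and 11259 with NT3, all within the control range. The log2 fold changes were -0.093 ± 0.12 for Rpl5 and -0.028 ± 0.11 for Rpl11 (SE), neither beyond its error. Rpl26, which is known to bind the p53 message, read 13094, 18609.9 and 14563 in controls and 14506, 16578 and 14121 with NT3, a log2 fold change of -0.021 ± 0.14 (SE).

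Rpl22, known for a role in lymphocyte development outside its ribosomal one, read 9502, 12121 and 9944 in controls and 10019, 10874 and 9848 with NT3, a log2 fold change of -0.031 ± 0.11 (SE). Rpl35a, altered in some cases of Diamond-Blackfan anaemia, read 12729, 17194 and 13953 in controls and 14394, 15725 and 13520.3 with NT3, a log2 fold change of 0.0010 ± 0.13 (SE). For both genes all NT3 arrays lay between control replicates 1 and 2. Rpl23, another protein known to bind Mdm2, read 11262, 15080.2 and 12516 in controls and 11677, 13040.1 and 11104 with NT3. Its log2 fold change was -0.11 ± 0.13 (SE; unadjusted p = 0.405; limma, adjusted p = 1.00) and 0.0049 without control replicate 2.

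Among bright members with an estimate above 0, the lowest unadjusted p values belonged to Rpl21, Rpl14 and Rpl4, which are of the large subunit. Rpl21 read 7222, 9704 and 8109.5 in controls and 9052, 9299 and 8099.6 with NT3, with control replicates 1 and 2 at the extremes and a log2 fold change of 0.088 ± 0.12 (SE; 95% interval -0.19 to 0.37). Rpl14 read 7059, 7765 and 7662 in controls and 7592, 7709.6 and 7529.8 with NT3, the smallest spread over arrays among the bright members, with a log2 fold change of 0.023 ± 0.088 (SE). A second probe set of Rpl14, below the filter, gave 0.52 ± 0.40 (SE), and the mean of both gave 0.27. Rpl4 read 8173, 9508 and 8475 in controls and 8895, 9162 and 8407 with NT3, a log2 fold change of 0.019 ± 0.097 (SE). None of these differences exceeded the spread between replicates.

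Rpl39, a small protein that lines the exit tunnel of the large subunit, had the largest estimate and the lowest p of the 46 tested members, on a dim probe set. It read 70.4, 192 and 202 in controls and 183, 202 and 309.8 with NT3. Control replicate 1 was far below the other 5 arrays and NT3 replicate 3 above them, and the groups overlapped. The log2 fold change was 0.69 ± 0.39 (SE; 95% interval -0.19 to 1.57; unadjusted p = 0.109; limma, adjusted p = 1.00). Leaving out control replicate 1 gave 0.20, leaving out NT3 replicate 3 gave 0.46, and leaving out control replicate 2 gave 0.92 with an unadjusted p of 0.0418 in limma (3.52% of all probe sets were under 0.05 in that fit). Blocking on the replicate number gave an unadjusted p of 0.0195 (2.15% of all probe sets were under 0.05), and the adjusted p in limma with Benjamini-Hochberg adjustment was 1.00. With the block and without control replicate 2, the log2 fold change was 1.00 ± 0.18 (SE) and the adjusted p in limma was 0.146. That fit called 4 of all probe sets (0.0215%). In it NT3 replicate 2 had no partner, so the estimate rested on the pairs numbered 1 and 3. With both arrays numbered 2 left out and no block, the same estimate had an adjusted p of 0.999 in limma.

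Rps4y2, a paralogue of Rps4x named after Y-linked relatives but placed on chromosome 4 by RefSeq, was the only tested member whose groups did not overlap. It read 683, 679 and 769 in controls and 649, 573 and 659.7 with NT3, every NT3 array below every control array. Of the 46 tested members, 1 had all NT3 arrays lower (3.21% of all probe sets) and 0 had all NT3 arrays higher (2.62%), together 1 against 5.83% of all probe sets. The log2 fold change was -0.18 ± 0.11 (SE; 95% interval -0.43 to 0.069; unadjusted p = 0.136; limma, adjusted p = 1.00). When each array was centred on its median, 0 members had groups that did not overlap (5.58% of all probe sets), and under quantile normalization 6 did (5.92%).

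The other paralogues had no common direction. Rpl26l1, nearly the same protein as Rpl26 from another gene, read 93.1, 123 and 109 in controls and 78.8, 104 and 80.6 with NT3. NT3 replicates 1 and 3 lay below all controls and NT3 replicate 2 among them, with a log2 fold change of -0.31 ± 0.20 (SE; unadjusted p = 0.149; limma, adjusted p = 1.00). Rps27l, a p53-inducible paralogue of Rps27, read 315, 463 and 548 in controls and 434, 589.5 and 492 with NT3, a log2 fold change of 0.22 ± 0.21 (SE) that became -0.0073 without control replicate 1.

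Rpl39l1, a paralogue of Rpl39, read 1215, 1896 and 1764 in controls and 1229, 2038 and 1738 with NT3. Its arrays numbered 1 were low in both groups, and the log2 fold change was 0.033 ± 0.21 (SE). Rpl7l1, a homologue of Rpl7 with a part in ribosome assembly, read 1056, 829 and 876 in controls and 1004, 902 and 823 with NT3, highest on control replicate 1, with a log2 fold change of -0.014 ± 0.13 (SE). Rpl3l, the paralogue of Rpl3 known from striated muscle, read 4.6, 19.7 and 23.5 in controls and 4.7, 2.0 and 4.6 with NT3, all below the filter. Control replicate 1 was as low as the NT3 arrays, so the groups overlapped. In the fit with no filter, Rpl3l had a log2 fold change of -1.87 ± 0.80 (SE; 95% interval -3.68 to -0.064; unadjusted p = 0.0438; limma, adjusted p = 1.00). In that fit 2.42% of all probe sets had an unadjusted p under 0.05, and Rpl3l was the only one of the 48 members whose interval left out 0.

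For Rpl28, Rpl30 and Rps13, which are standard ribosomal proteins, the probe set with a sole symbol was dim while a shared one was bright. The sole-symbol probe set of Rpl28 read 98.2, 118 and 68.0 in controls and 101, 67.7 and 82.7 with NT3, with a log2 fold change of -0.16 ± 0.25 (SE), and the shared one ran from 9855 to 13940.3. That of Rps13 read 49.6, 44.8 and 49.6 in controls and 41.7, 52.1 and 47.8 with NT3, with a log2 fold change of -0.029 ± 0.22 (SE), and the shared one ran from 9091 to 11774. That of Rpl30 read 29.0, 41.7 and 32.3 in controls and 40.7, 36.3 and 38.0 with NT3, below the filter by its mean. A shared one ran from 10119 to 13569, and another, which also carries the symbol of Rps10, ran from 6944 to 8882. The shared probe sets of Rpl28, Rpl30 and Rps13 were all highest on control replicate 2, as the bright members were, and their log2 fold changes ran from -0.040 to 0.024.

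Genes that act with the ribosome were read from 8 further lists. In the main limma fit 0 of their tested genes had an adjusted or unadjusted p under 0.05 (1.29% of all probe sets had the latter). With the replicate block, 1 ribosome biogenesis gene had an unadjusted p under 0.05 in limma (2.15% of all probe sets). Under quantile normalization 1 ribosome quality control gene did (251 of 18625 probe sets). Without control replicate 2, 2 mitochondrial ribosomal, 1 translation factor and 1 mTOR pathway gene did (3.52%). In these fits 0 passed the adjusted threshold. The other TOP genes, mostly translation factors and chaperones of new proteins, had a median log2 fold change of -0.045 over 15 tested genes, 4 above and 11 below 0. Eef2, the elongation factor that moves the ribosome along, had the lowest p of that list, with 3812, 5279.5 and 3704 in controls and 3913, 4064 and 3664 with NT3, a log2 fold change of -0.12 ± 0.14 (SE). The estimate was 0.045 without control replicate 2 and 0.44 when every Eef2 probe set was averaged, so its direction depended on both. Like the bright members, Eef2 was highest on control replicate 2. Translation factors outside the TOP list had a median of 0.00052 over 33 genes, 17 above and 16 below 0.

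Ribosome biogenesis factors had a median of -0.019 over 59 genes, 24 above and 35 below 0, and the lowest p was that of Rrp12, a factor in subunit export, at -0.40 ± 0.19 (SE; unadjusted p = 0.0619; limma, adjusted p = 1.00) and at -0.21 without control replicate 2. RNA polymerase I genes, which make ribosomal RNA, had a median of -0.039 over 16 genes, 5 above and 11 below 0. The mTOR pathway and the regulators of TOP messages had a median of -0.014 over 33 genes, 14 above and 19 below 0, with the lowest p for the kinase Akt2 at -0.24 ± 0.12 (SE; unadjusted p = 0.0714; limma, adjusted p = 1.00) and at -0.080 with all its probe sets averaged. The p53 response genes had a median of 0.034 over 9 genes, 7 above and 2 below 0. Ccng1, a p53 target, read 643, 603 and 628 in controls and 715, 732 and 699.6 with NT3, with a log2 fold change of 0.20 ± 0.096 (SE; unadjusted p = 0.0723; limma, adjusted p = 1.00). Its groups did not overlap, as in 1 of the 9 genes and 5.83% of all probe sets. The groups of Rrp12 and Akt2 did not overlap either.

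Ribosome quality control genes had a median of -0.050 over 13 genes, 5 above and 8 below 0. Upf2, a factor of nonsense-mediated decay, had the lowest p of that list at -0.21 ± 0.095 (SE; unadjusted p = 0.056; limma, adjusted p = 1.00). It was 1 of 2 genes of the 13 whose groups did not overlap (5.83% of all probe sets). The 73 mitochondrial ribosomal protein genes had a median of -0.0034, 34 above and 39 below 0, against -0.027 for the 46 cytosolic ones; the difference between them was not tested. Mrps2, of the mitochondrial small subunit, read 327, 349.9 and 309 in controls and 275, 265 and 280.4 with NT3. Its groups did not overlap, as in 2 of the 73 genes and 5.83% of all probe sets. Its log2 fold change of -0.26 ± 0.12 (SE; unadjusted p = 0.0506; limma, adjusted p = 1.00) did not pass the test. With every Mrps2 probe set averaged the estimate was -0.083.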

How the data were processed

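RNA from 6 samples of whole cultured rat ovary, 3 control and 3 NT3, was measured on 1-colour Affymetrix arrays. The authors deposited linear MAS5 intensities, per the submitters' processing notes, with the MAS5 version not given in the sources used here. Of 31099 probe sets, 57 controls were removed. Sample titles gave each group and replicate number. No further scaling was applied. Signals of 0 (5 probe sets) were set to 0.1, the lowest positive signal, before log2. Probe sets below the 40th percentile of mean log2 signal (41.3) were left out, which left 18625. The groups were compared with limma 3.58.1 (lmFit, eBayes with an intensity trend) in R 4.3.3 with Benjamini-Hochberg adjustment, and the fit was tested on simulated data. The number of arrays limits the precision.

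The members, the gene lists and the tests were chosen with earlier results of these data known. Named members were the 6 of lowest unadjusted p in each direction, the 4 brightest and 4 dimmest, those with groups that do not overlap, the 5 of largest range over arrays, every paralogue, and Rplp0, Rpsa, Rps6, Rpl5, Rpl11, Rps3 and Rpl22; from the other lists up to 3 genes of lowest p could be named. The deviations of same-numbered arrays from their group means correlated at 0.230, 0.247 and 0.222 over all tested probe sets. Those of other pairs correlated at -0.246 to 0.029. Deviations from a group mean sum to 0, which pushes other pairs towards negative values when same-numbered ones are positive. The numbers were taken to pair the samples from the data, and the labels do not say what same-numbered samples share. The p-values, standard errors and intervals are without the pairing unless the block is named. Sequences are RefSeq's, build GRCr8, matched by gene ID for 41 members and by symbol for 2. In 25 of the 43 the start equals the 5′ end of the RefSeq gene record. Marker lists for theca and steroidogenic stroma, endothelium, and oviduct and surface epithelium had 3 of 6, 4 of 4 and 8 of 8 annotated genes above the filter (Cyp17a1, Cyp11a1 and Insl3 were below it). Alternatives comprised the replicate block, quantile normalization, median centring, other filters, an offset of 16, no intensity trend, array weights, other probe set choices and leaving out arrays.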

Additional observations from a re-analysis of the deposited data

How the results depend on the processing

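In 24 named members and 8 genes of other lists, 470 of 541 alternative estimates kept their direction, 71 changed sign, and 0 passed the adjusted threshold; 13 of these 32 genes changed sign without control replicate 2. Leaving out 1 array at a time, the log2 fold change ran from -0.118 to 0.054 for Rpl11, -0.019 to 0.049 for Rpl14, -0.011 to 0.20 for Rpl21, -0.101 to 0.075 for Rpl22, -0.206 to 0.0049 for Rpl23, -0.131 to 0.122 for Rpl26, -0.381 to 0.017 for Rpl28, -0.093 to 0.124 for Rpl35a, -0.163 to 0.238 for Rpl39l1, -0.026 to 0.083 for Rpl4 and -0.163 to 0.014 for Rpl5. It ran from -0.087 to 0.089 for Rpl7l1, -0.129 to 0.052 for Rplp0, -0.103 to 0.058 for Rps13, -0.154 to 0.073 for Rps23, -0.0073 to 0.392 for Rps27l, -0.133 to 0.126 for Rps29, -0.144 to 0.075 for Rps3, -0.148 to 0.041 for Rps6, -0.09 to 0.086 for Rpsa and -0.211 to 0.045 for Eef2. With array weights the estimates that changed sign were 0.035 for Rpl11, 0.048 for Rpl22, 0.086 for Rpl26, 0.013 for Rpl28, 0.035 for Rplp0, 0.034 for Rps23, 0.09 for Rps29, 0.043 for Rps3, 0.015 for Rps6, 0.063 for Rpsa and 0.011 for Eef2. With both arrays numbered 2 left out, and equally with the replicate block without control replicate 2, they were 0.012 for Rpl11, 0.031 for Rpl22, 0.052 for Rpl26, 0.161 for Rpl28, -0.0021 for Rpl39l1, 0.011 for Rplp0, 0.018 for Rps23, 0.057 for Rps29, 0.029 for Rps3, 0.0080 for Rps6, 0.057 for Rpsa and 0.011 for Eef2. Under quantile normalization they were 0.0086 for Rpl11 and 0.0035 for Rps13, and with every probe set of a gene averaged 0.027 for Rpsa and 0.444 for Eef2. The cause of these changes was not tested.

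The replicate block raised the unadjusted calls among all probe sets from 240 to 401 and changed no adjusted call. With the block and without control replicate 2, 4 probe sets passed, in a fit that rested on the pairs numbered 1 and 3. The 1 member with groups that do not overlap (5.83% of all probe sets) became 6 under quantile normalization (5.92%), 0 with median centring (5.58%), 0 among the 41 tested standard genes without the paralogues and 3 with both arrays numbered 2 left out (28.6%). Leaving out 1 array gave 1 to 4 members, against 12.1% to 18.5% of all probe sets; the 4 came without control replicate 1 (14.3%). The members' median log2 fold change ran from -0.116 to 0.073 when 1 array was left out and was 0.044 with array weights and 0.028 with both arrays numbered 2 left out. The median deviation of the members moved to 0.0028 on control replicate 1 and 0.022 on control replicate 2 under quantile normalization. The standard errors of the 8 tested dim members had a median of 0.209 against 0.121 in the bright ones. Those of Rps4y2 (0.11) and Rpl7l1 (0.127) lay within the range of the bright members, and the rest above it. The part of brightness in this was not tested.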
